A study of Homo sapiens with 62 samples.

Results

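The rows of the mitochondrial genome were the genes that the deposited expression tables place on chrM. They were chosen by locus alone, and 37 of the 55040 rows of each table met the rule. By gene identifier they are 13 protein genes, 2 ribosomal RNAs and 22 transfer RNAs. The protein genes are 12 rows with an MT- symbol longer than 200 bases, and 1 row that the tables list under a clone name and that is MT-ATP8 in the GENCODE 29 annotation. The start and end of all 37 rows were those of GENCODE 29 on GRCh38. The status of the estimate was OK in all 740 combinations of row and library.

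The libraries came from GM12878, an established human B-lymphoblastoid cell line immortalised with Epstein-Barr virus. Hand-picked cells were lysed, their RNA was copied and amplified as cDNA (SMARTer kit), the cDNA was cut and tagged (Nextera) and read on a HiSeq 2000. The labels give the molecule as polyA RNA. Of the 62 samples, 20 were used here: splits of pools of 10 cells into 10 parts, each part handled like a cell of its own. The 10 splits called numbered are counted from 1 to 10 in their titles, and the 10 called unnumbered carry only a library number (232, 233 and 246 to 253). No treatment or genotype separates the 2 sets in the labels, and what else set them apart, or whether each set came from 1 pool, the labels do not say. P-values below therefore measure the spread between splits, which may be purely technical. The labels name no run or batch. Their laboratory experiment numbers fall into stretches of consecutive numbers, called groups a to d here: numbered splits 5 to 8 (group a), the other 6 numbered splits (group b), unnumbered splits 232 and 233 (group c) and the other 8 (group d). Whether a group was prepared or sequenced together is not stated. No group holds splits of both sets, so a difference between groups and one between sets cannot be told apart.

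Values are FPKM, fragments per kilobase of gene and per megafragment (M) mapped. Depth estimated from the deposited confidence bounds was 11.8 to 20.6 M in the numbered splits. It was 23.3 to 38.7 M in the unnumbered splits, apart from 7.80 M in split 252 and 0.128 M in split 247. The B cell markers fixed for this check summed to 7586 to 12938 FPKM in the numbered splits and 3781 to 6367 FPKM in the unnumbered splits. The 15 markers of T cells, monocytes, erythroid, epithelial and fibroblast cells summed to 1.66 to 53.8 FPKM and 0.903 to 3.78 FPKM. Their part in the results was not tested.

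The mitochondrial genome encodes core subunits of the respiratory chain and of ATP synthase, together with the ribosomal and transfer RNAs that translate them inside the organelle. Both strands are transcribed into long precursors, which are cut at the transfer RNAs that lie between the other genes. Most of the resulting mRNAs then receive a short poly(A) tail, which in several of them completes the stop codon. All the other proteins of the organelle, including the enzymes that transcribe and process this genome, are made from nuclear genes.

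The layout of the genome matters for what the tables can hold, because neighbouring genes share bases and the transfer RNAs are short. Of the protein genes, 6 have a row that is not a whole number of codons, and all 6 rows end in T or TA, as in these 3′ ends of MT-CYB (chrM:15858-15887, plus strand) and MT-CO3 (chrM:9961-9990, plus strand), where the capital marks the last annotated base. All sequences here are from the GENCODE 29 transcripts (GRCh38).
MT-CYB: taattgaaaacaaaatactcaaatgggccT
MT-CO3: tgtatgtctccatctattgatgagggtctT
The rows of MT-ATP8 and MT-ATP6 share 46 bases. These are the end of the former (chrM:8512-8572, plus strand) and the start of the latter (chrM:8527-8587, plus strand), with the shared bases in capitals.
MT-ATP8: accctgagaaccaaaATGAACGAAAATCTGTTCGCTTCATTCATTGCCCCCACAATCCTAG
MT-ATP6: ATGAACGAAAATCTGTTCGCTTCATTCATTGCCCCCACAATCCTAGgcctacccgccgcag
MT-ND4L (chrM:10740-10766, plus strand) and MT-ND4 (chrM:10760-10786, plus strand) share 7 bases, again in capitals.
MT-ND4L: cataacctaaacctactccaATGCTAA
MT-ND4: ATGCTAAaactaatcgtcccaacaatt
The 2 ribosomal RNAs contain internal runs of A, shown because the study prepared polyA RNA and these 2 rows differed in the other direction from most protein genes. The longest run of MT-RNR1 (window chrM:981-1010, plus strand) is 6 bases and that of MT-RNR2 (window chrM:2445-2475, plus strand) is 7 bases.
MT-RNR1: cacctgagttgtAAAAAActccagttgaca
MT-RNR2: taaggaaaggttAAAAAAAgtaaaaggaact
Such runs are common. The longest run was 8 bases in MT-ND5, 7 in MT-ND2, MT-CO1 and MT-ND4, and 6 in MT-ND1 and MT-ATP8. In the other mitochondrial protein genes it was 3 to 5 bases. Whether runs of A had a part in the differences was not tested. Of the GENCODE 29 transcripts within 10% of the length of MT-RNR1, 29.7% held a run of at least 6 A on the sense strand, and of those within 10% of the length of MT-RNR2, 24.9% held at least 7. MT-TV, the transfer RNA for valine (chrM:1602-1670, plus strand), lies between the 2 ribosomal RNAs and is shown whole as an example of the 69-base rows discussed further on.
MT-TV: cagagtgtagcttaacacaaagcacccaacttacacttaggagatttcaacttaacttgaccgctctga

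The sets differed in opposite directions for the 2 kinds of long mitochondrial RNA. The 2 ribosomal RNAs were 3.46-fold and 3.88-fold higher in the numbered splits, whereas 12 of the 13 protein genes had a mean log2 value below that of the unnumbered splits. Differences were tested with limma on log2(FPKM + 1) over all 10506 rows with a mean of at least 1 FPKM, with Benjamini-Hochberg adjustment over those rows and a threshold of 0.05. Both ribosomal RNAs passed as higher in the numbered splits, as did 3.93% of all rows (413). Of the protein genes, 8 of 13 passed as higher in the unnumbered splits, as did 1.38% of all rows (145), and none passed as higher in the numbered splits, where only MT-ND4L was above 0 (unadjusted p = 0.0443). An exact rank-sum test on each row passed the same 8 and MT-ND4, and again none as higher in the numbered splits. The median log2 difference of the protein genes, numbered minus unnumbered, was -0.60, and that of all rows tested was 0.35. FPKM is relative to the total of each library, so the amount of mitochondrial RNA per cell was not measured.

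Abundant genes off the mitochondrial genome went mostly with the ribosomal RNAs. Of the 203 rows at 1000 FPKM or more on other chromosomes, 59.1% passed as higher in the numbered splits and 9.85% as higher in the unnumbered splits. The direction of the 2 ribosomal RNAs was thus that of most abundant rows, and the direction of the 8 protein genes was that of a minority. Size factors and a fixed library sum changed the balance of all calls but not the direction of these 10 rows, while scaling on the mitochondrial protein genes themselves put MT-CO2 and MT-CYB at log2 0.14 and 0.12, above 0. In all, 309 rows were higher in numbered and 194 in unnumbered splits with median-of-ratios size factors, against 345 and 217 after scaling each library to a fixed sum. With a trend on transcript length removed the numbers were 221 and 221.

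**Figure D1:**
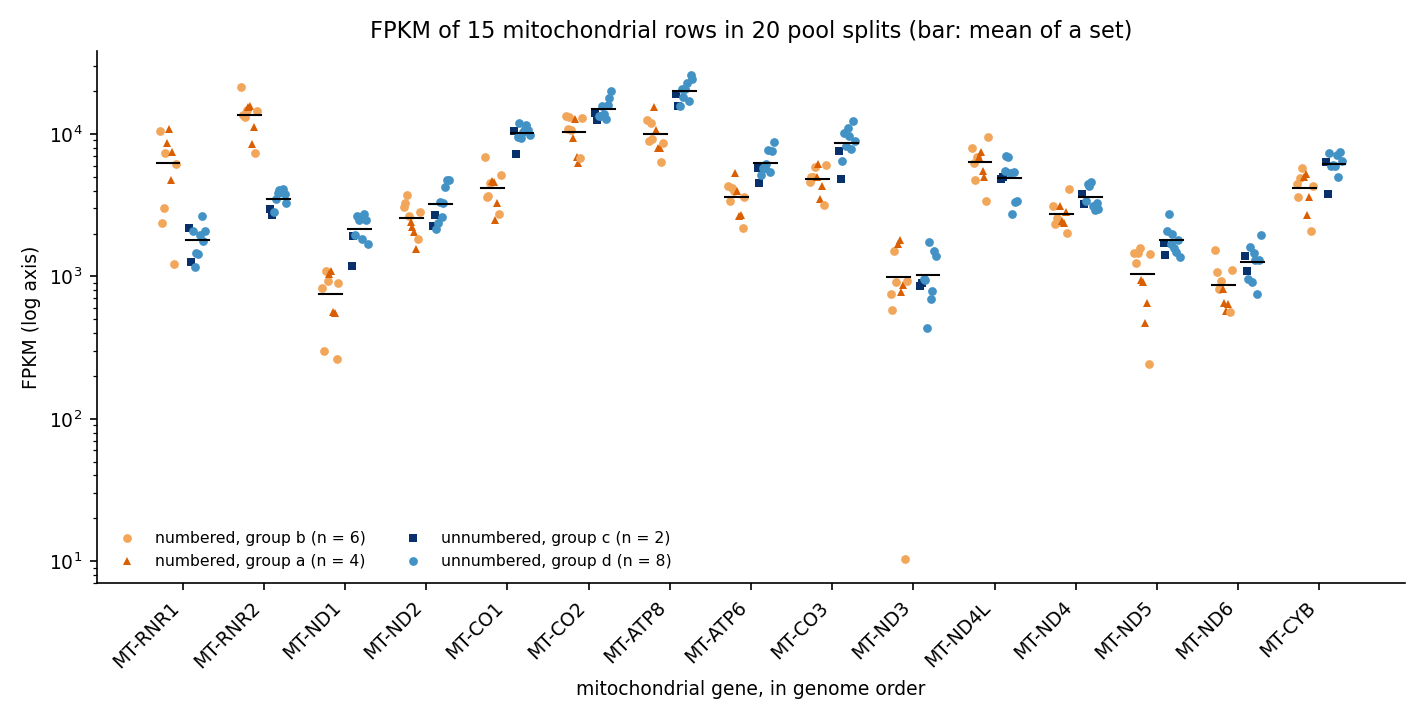
FPKM (log axis) of the 15 mitochondrial rows above 0, in genome order, with 1 point for each split, coloured by set and group, and a black bar at the mean of each set (n = 10). MT-RNR2 lies higher in all numbered splits, MT-ND1, MT-CO1 and MT-ATP8 lie lower in all numbered splits, the other 11 rows overlap, and MT-ND3 in numbered split 9 stands alone at 10.3 FPKM. How many of all rows separate in this way is not given here.

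MT-RNR2 encodes the RNA of the large mitochondrial ribosomal subunit (chrM:1671-3229, plus strand, 1559 bases). It ranged from 7386 FPKM in split 9 to 21241 FPKM in split 1, with a median of 14047 FPKM, among numbered splits. Among unnumbered splits it ranged from 2690 FPKM in split 233 to 4116 FPKM in split 251, with a median of 3635 FPKM. Every numbered split thus exceeded every unnumbered split. The means were 13554 ± 3936 and 3494 ± 525 FPKM (SD, n = 10), a log2 difference of 1.91 (SE 0.14, limma adjusted p = 2.0e-09). For this and the rows below, the share of all rows whose sets do not overlap is not given here.

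MT-RNR1 encodes the RNA of the small subunit (chrM:648-1601, plus strand, 954 bases), and its numbered values were far more scattered. They ran from 1222 FPKM in split 9 through a median of 6728 to 10762 FPKM in split 6, and the unnumbered values from 1169 through 1861 to 2642 FPKM. Of the numbered splits, 8 exceeded all unnumbered ones, and splits 2 and 9 fell within the unnumbered range at 2365 and 1222 FPKM. The means were 6230 ± 3345 and 1801 ± 469 FPKM, a log2 difference of 1.57 (SE 0.30, limma adjusted p = 0.00127). Without the 4 splits of group a the difference was 1.197 and did not pass (adjusted p = 0.105), while with group a kept as a covariate the same difference passed (adjusted p = 0.0379).

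The ratio of MT-RNR2 to MT-RNR1, whose genes are neighbours on the same precursor, therefore varied within the numbered set. It was 1.47 to 1.78 in the 4 splits of group a and 2.01 to 6.04 in the 6 splits of group b, where splits 2, 3 and 9 reached 5.78, 4.39 and 6.04. In the unnumbered splits it was 1.36 to 2.99. The difference between group a and group b passed in neither row by limma (log2 0.92, adjusted p = 0.766 for MT-RNR1, and -0.13, adjusted p = 1 for MT-RNR2). Between these groups of splits 0.019% of all rows passed, and none was mitochondrial, with MT-RNR1 and MT-CO2, 2 of the 15, at an unadjusted limma p under 0.05.

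Relative to the summed FPKM of the 13 protein genes, the summed ribosomal RNA level was 0.273 to 0.491 in the numbered splits and 0.0521 to 0.0835 in the unnumbered splits, with no overlap. For shares of a library, FPKM was summed without rows of status LOWDATA in every library or FAIL in at least 1. Ribosomal rows held 1.403 ± 0.400% of this sum in numbered splits and 0.452 ± 0.0560% in unnumbered splits. Protein rows held 3.72 ± 0.434% and 7.18 ± 0.680%. Neither share overlapped between the sets. The whole mitochondrial genome held 3.62 to 6.66% and 6.45 to 8.51% of the same sum, and only numbered split 1 reached the unnumbered range.

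**Figure D2:**
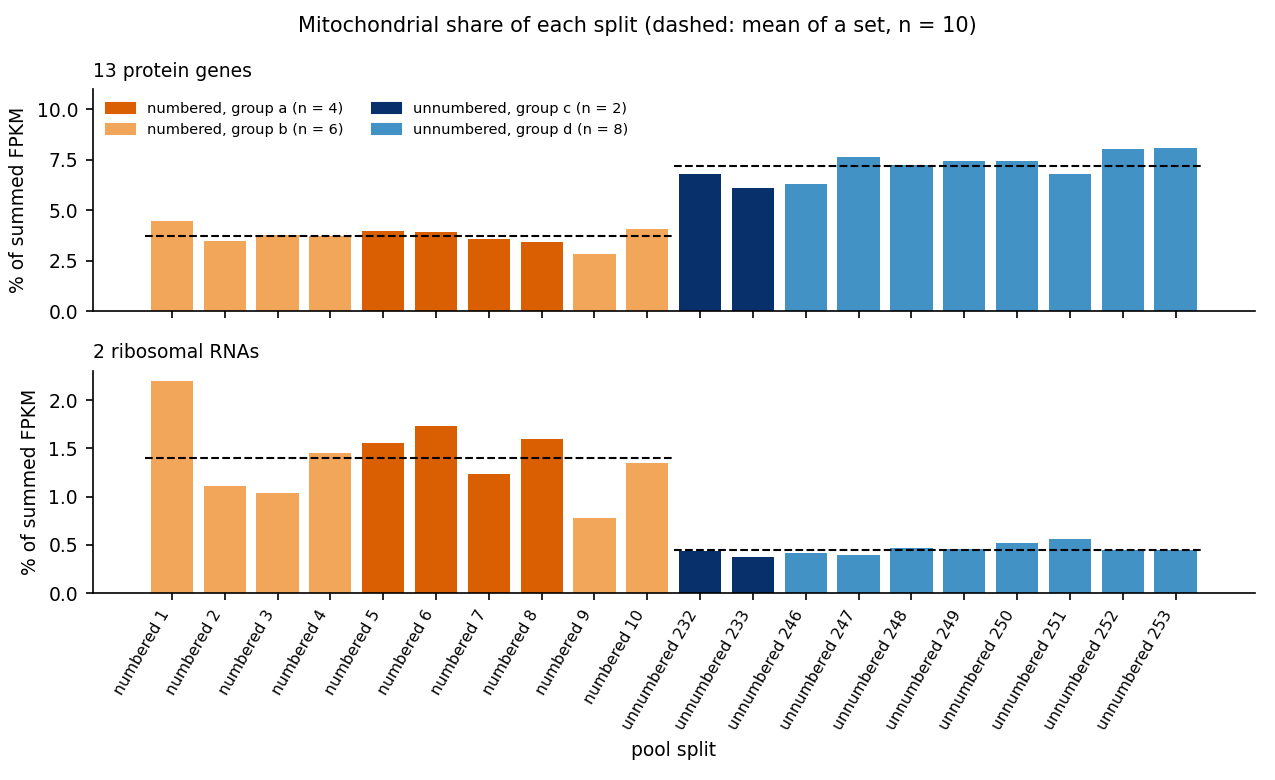
Percent of the summed FPKM held by the 13 mitochondrial protein genes (upper panel) and the 2 mitochondrial ribosomal RNAs (lower panel) in each of the 20 splits, coloured by set and group, with a dashed line at the mean of each set (n = 10). The sum leaves out rows of status LOWDATA in every library or FAIL in at least 1. The protein share is 2.85 to 4.47% in numbered and 6.08 to 8.07% in unnumbered splits, and the ribosomal share 0.776 to 2.19% and 0.370 to 0.566%.

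Counted in fragments rather than FPKM, the mitochondrial totals of the sets overlapped (FPKM gives more weight to short genes). Mitochondrial rows took 5.02 ± 1.31% of the estimated fragments of numbered splits (2.75 to 7.11%) and 5.29 ± 0.578% of those of unnumbered splits (3.93 to 6.03%). Within that total the make-up was different. Ribosomal rows made 39.4 to 51.1% of the mitochondrial fragments in the numbered splits and 9.77 to 13.8% in the unnumbered splits.

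Complex I of the respiratory chain, which takes electrons from NADH, has 7 of its subunits encoded here. MT-ND1, a subunit of its membrane arm (chrM:3307-4262, plus strand), showed the largest difference among the protein genes. Its numbered values ran from 262 through a median of 862 to 1090 FPKM and its unnumbered values from 1176 through 2224 to 2735 FPKM, so that the sets did not overlap. The log2 difference was -1.63 (SE 0.26, limma adjusted p = 1.21e-04). MT-ND1 lies next to MT-RNR2 with only MT-TL1, the transfer RNA for leucine, between them, and the 2 rows moved in opposite directions.

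MT-ND5, a proton-pumping subunit, was also lower in the numbered splits (1039 ± 471 against 1789 ± 413 FPKM, log2 -0.95, adjusted p = 0.0440). That call was narrow: without unnumbered split 247, which held its highest value, the difference was -0.88 (adjusted p = 0.0912), and without group a it was -0.72 (adjusted p = 0.343). MT-ND4 stood at 2738 ± 601 and 3610 ± 637 FPKM and fell just short of the threshold (log2 -0.41, adjusted p = 0.0565). MT-ND2 (2563 ± 676 and 3237 ± 1012 FPKM, adjusted p = 0.368) and MT-ND6 (871 ± 304 and 1271 ± 358 FPKM, adjusted p = 0.157) did not pass. These 3 calls depended on the scaling: with each library scaled to a fixed sum, MT-ND4 (log2 -0.65, adjusted p = 6.74e-04), MT-ND2 (-0.56, adjusted p = 0.0241) and MT-ND6 (-0.80, adjusted p = 0.0101) all passed as higher in the unnumbered splits. MT-ND6 is the only protein gene read from the minus strand. No strand-specific counting is stated for these libraries, so its reads and those of RNA from the opposite strand cannot be told apart.

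MT-ND4L, which shares its end with the start of MT-ND4, was the only protein gene with a higher mean in the numbered set. It ranged from 3395 through 6527 to 9593 FPKM in the numbered splits and from 2762 through 5174 to 6994 FPKM in the unnumbered splits, and the difference did not pass (log2 0.37, SE 0.18, adjusted p = 0.289). The ratio of MT-ND4L to MT-ND4, which are found on a shared mRNA, was 1.68 to 3.04 in the numbered and 0.883 to 1.85 in the unnumbered splits. In fragments, MT-ND4L held fewer than MT-ND4 in every split, although its FPKM was mostly higher. With a trend on transcript length removed over all rows, the log2 difference of MT-ND4L was -0.49 (adjusted p = 0.258), so the sign of its difference depended on that setting.

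MT-ND3 had the highest CV (SD over mean) of the 15 rows within each set, 0.557 in the numbered and 0.391 in the unnumbered splits. In the numbered set MT-RNR1 followed closely at 0.537. MT-ND3 ranged from 582 to 1813 FPKM in 9 numbered splits but stood at 10.3 FPKM in split 9, a value that rests on about 27.0 fragments at a depth of 19.7 M. In the unnumbered splits it ranged from 432 to 1731 FPKM. The difference did not pass (log2 -0.55, SE 0.61, adjusted p = 0.633), and without splits 9, 247 and 253 it was 0.16 (adjusted p = 0.782). Split 9 held the lowest numbered value of 12 of the 15 rows, and splits 7 and 8 of group a that of the other 3.

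MT-CYB encodes cytochrome b, the mitochondrial subunit of complex III, which passes electrons to cytochrome c. It stood at 4168 ± 1173 FPKM in the numbered and 6151 ± 1135 FPKM in the unnumbered splits (log2 -0.60, SE 0.16, adjusted p = 0.0216). Its sets overlapped, with numbered values up to 5813 FPKM and an unnumbered low of 3760 FPKM in split 233. Without group a the difference was -0.59 (adjusted p = 0.122).

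The 3 core subunits of complex IV, the cytochrome oxidase that reduces oxygen, all passed as higher in the unnumbered splits. MT-CO1 (chrM:5904-7445, plus strand) ranged from 2494 through a median of 4075 to 6838 FPKM across numbered splits and from 7197 through 10338 to 12010.0 FPKM across unnumbered ones. No numbered split reached the lowest unnumbered one. The log2 difference was -1.34 (SE 0.14, limma adjusted p = 2.08e-07). MT-CO3 was 1.79-fold higher in the unnumbered set (4864 ± 1007 against 8698 ± 2199 FPKM, log2 -0.82, adjusted p = 3.46e-04).

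MT-CO2 differed least of these, at 10289.8 ± 2830.3 and 14926 ± 2460.0 FPKM (log2 -0.58, adjusted p = 0.00829), and the call was lost without group a (log2 -0.42, adjusted p = 0.139). MT-CO1 and MT-CO2, which sit side by side apart from 2 transfer RNAs, thus did not move by the same amount. The ratio of MT-CO1 to MT-CO2 was 0.278 to 0.524 in the numbered splits and 0.494 to 0.898 in the unnumbered splits.

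Complex V, the ATP synthase, has 2 subunits encoded here, both in its membrane part. MT-ATP6 was 1.72-fold higher in the unnumbered splits (3630 ± 937 against 6255 ± 1317 FPKM, log2 -0.80, adjusted p = 4.39e-04), with only numbered split 5 reaching the unnumbered range. MT-ATP8 ranged from 6319 through 9058 to 15478 FPKM across numbered splits and from 15708 through 19832 to 25963 FPKM across unnumbered ones. The sets did not overlap and the difference passed (log2 -1.03, SE 0.13, adjusted p = 2.62e-06).

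The level of MT-ATP8 cannot be read like that of the longer rows. Its row has 207 bases, and the bounds imply that its FPKM was counted over an effective length of 23.2 to 23.6 bases. For the longer rows the effective length followed the row length minus 213 to 215 bases. It lay a little above that line near the crossing, at about 87.2 bases for MT-ND4L. So the apparent rank of MT-ATP8 as the highest mitochondrial row of the unnumbered set, at 20013 FPKM, rests on division by a very short length. MT-ATP6 held 5.62 to 8.56 times as many fragments in each split, although its FPKM was lower.

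The same relation bears on the transfer RNAs. All 22 rows, 14 on the plus and 8 on the minus strand, were listed at exactly 0 FPKM with status OK in all 20 splits. They have 59 to 75 bases, fewer than the 213 to 215 bases at which the line of fragments per FPKM against length reaches 0. Of 1070 rows of the same lengths on other chromosomes, 479 were listed with status LOWDATA in every library instead. A value of 0 with status OK is therefore no measurement that transfer RNAs were absent. The same holds for MT-TV, which the ribosomal window of the genome encloses but which is a transfer RNA row.

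**Figure D3:**
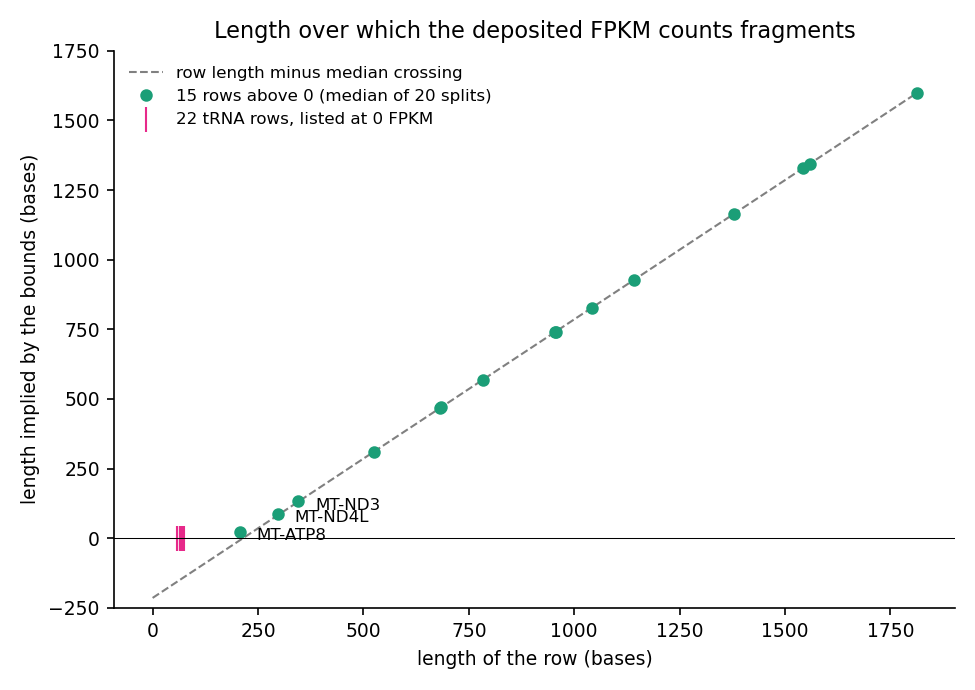
Length over which fragments are counted, as the deposited bounds imply it (vertical axis, bases, median of 20 splits), against the length of the row (horizontal axis, bases) for the 15 mitochondrial rows above 0, with the 22 transfer RNA rows as ticks at 0. The points follow row length minus 213 to 215 bases (dashed) closely, except MT-ATP8, whose 207 bases lie short of the crossing, and all transfer RNA rows lie at 59 to 75 bases.

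Once the libraries were scaled on the summed FPKM of the 13 protein genes, which removes a shift they share, 3 protein genes stayed lower in the numbered splits. These were MT-ND1 (log2 -0.91, SE 0.21, adjusted p = 0.00542), MT-CO1 (-0.63, SE 0.08, adjusted p = 5.42e-06) and MT-ATP8 (-0.32, SE 0.07, adjusted p = 0.00587). MT-ND4L passed as higher in the numbered splits (log2 1.08, SE 0.17, adjusted p = 5.26e-05), and the ribosomal differences became 2.28 for MT-RNR1 and 2.62 for MT-RNR2. The other 9 protein genes did not pass. The scale is the sum of the same genes that were tested. Lower values of some protein genes therefore go with higher values of others, and their scaled signs are relative. With this scaling 6.81% of all rows passed as higher in numbered and 0.714% as higher in unnumbered splits, and the median of all rows moved to 0.59.

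**Figure D4:**
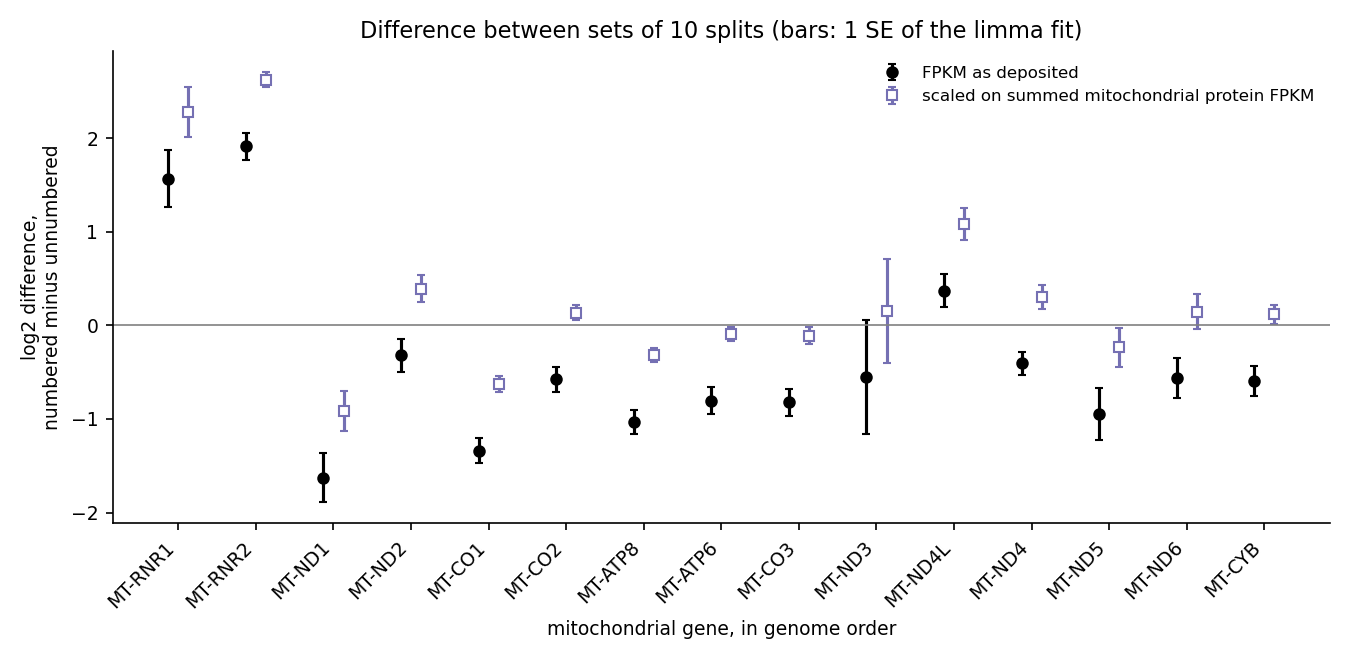
Log2 difference, numbered minus unnumbered, with bars of 1 SE from limma (n = 10 and 10), for FPKM as deposited (filled circles) and after scaling on the summed mitochondrial protein FPKM (open squares), in genome order. The ribosomal RNAs lie above 0 on both scales (1.57 and 1.91 as deposited), and MT-ND1, MT-CO1 and MT-ATP8 lie below 0 on both.

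As shares of the summed protein FPKM, MT-CO2 and MT-ATP8 led in both sets. MT-CO2 made 19.6 ± 2.58% of it in the numbered and 17.8 ± 2.05% in the unnumbered splits, and MT-ATP8 19.1 ± 2.98% and 23.7 ± 2.01%. MT-ND4L ranked next in the numbered set at 12.1 ± 2.01% but made only 5.99 ± 1.96% of the unnumbered sum, and 9 of the 10 numbered splits exceeded all unnumbered ones. Its FPKM, and so its rank, also rests on a short effective length, about 87.2 bases. MT-CO1 took the reverse course with 7.88 ± 1.22% and 12.1 ± 1.33%, and 9 of the 10 numbered splits lay below all unnumbered ones. MT-ND1 (1.398 ± 0.409%), MT-ND3, MT-ND5 and MT-ND6 made the smallest shares of the numbered sum, and MT-ND3 (1.203 ± 0.405%), MT-ND6 and MT-ND5 those of the unnumbered sum. Without the uncertain level of MT-ATP8 in the sum, the sets no longer overlapped in the share of MT-CO1 (9.75 ± 1.501% and 15.9 ± 1.59%).

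Between splits of a set, the protein genes varied far more than counting of fragments alone gives. The median coefficient of variation (CV) of the 13 genes was 0.281 over numbered and 0.231 over unnumbered splits, where the median counting error was 0.585% and 0.398%. Only in a few values did counting matter: the largest counting errors were those of MT-ND3, 19.2% in numbered split 9 and 25.0% in unnumbered split 247. Rows of 1000 FPKM or more on other chromosomes had a median CV of 0.229 (212 rows) over numbered and 0.272 (187 rows) over unnumbered splits. Of the 13 protein genes, 2 had a CV below that median over numbered splits and 9 over unnumbered splits.

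Part of the spread was shared by the genes. Taken as a share of the summed protein FPKM, the CV was lower for all 13 genes over numbered splits and for 11 of 13 over unnumbered splits, with medians of 0.166 and 0.192. MT-ND4L and MT-ND4 were the 2 exceptions. The summed protein FPKM itself had a CV of 0.222 and 0.122, and the summed ribosomal FPKM 0.342 and 0.141.

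**Figure D5:**
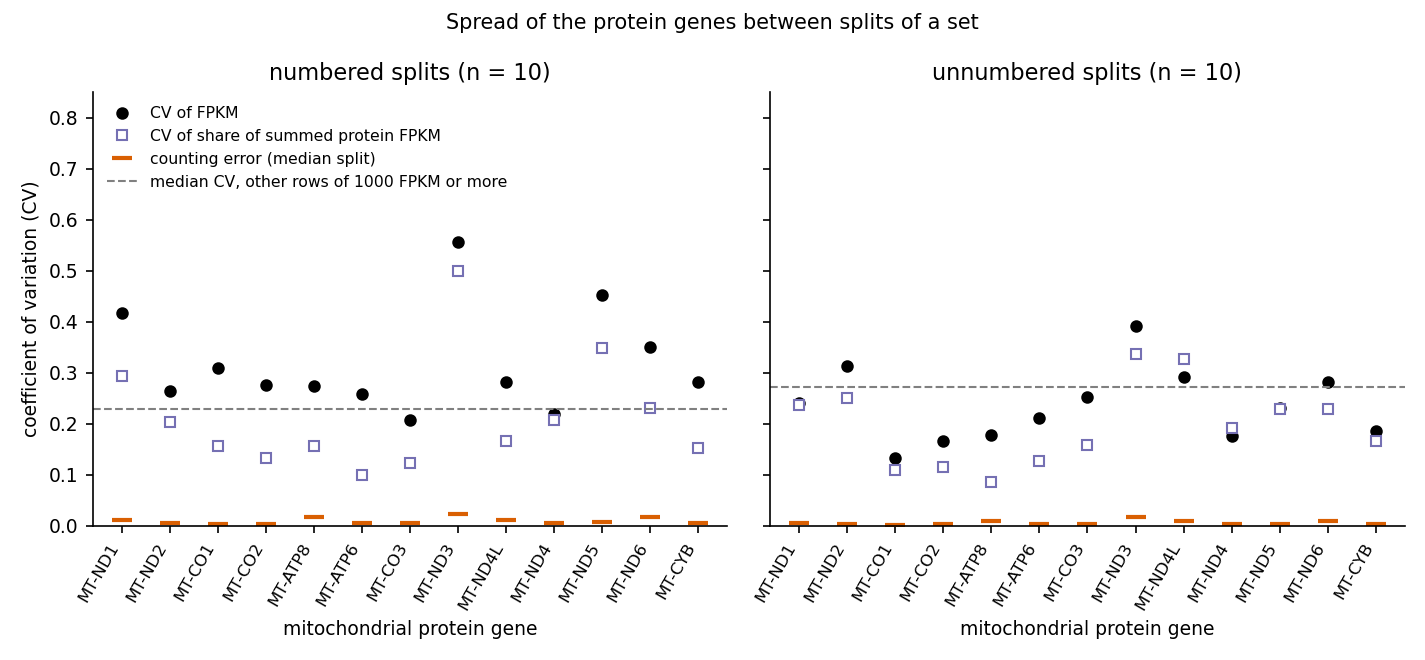
Coefficient of variation of each mitochondrial protein gene over the 10 numbered (left) and 10 unnumbered splits (right), for FPKM (filled circles) and for the share of the summed protein FPKM (open squares), with the counting error of the median split (orange bars) and the median CV of other rows at 1000 FPKM or more (dashed). The CV of FPKM is 0.207 to 0.557 on the left and 0.132 to 0.391 on the right, well above the counting error of each gene.

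The few nuclear subunits of the respiratory complexes and ATP synthase that passed were mostly higher in the numbered splits. Of 66 nuclear subunits of complexes I, III, IV and V, 65 could be tested, and 9 passed as higher in the numbered and 1 as higher in the unnumbered splits, beside 3.93% and 1.38% of all rows. With size factors 3 were higher in the unnumbered splits. Their median log2 difference was 0.63, beside -0.60 for the mitochondrial protein genes and 0.35 for all rows. Among complex IV subunits, the structural subunit COX7C stood at 3565 ± 1180 FPKM in the numbered and 1501 ± 649 FPKM in the unnumbered splits (log2 1.30, adjusted p = 4.91e-04) and COX5A at 464 ± 234 and 61.4 ± 56.3 FPKM (adjusted p = 0.00395). COX6C did not pass (1758 ± 495 and 1419 ± 408 FPKM, adjusted p = 0.482).

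In complex I, 4 of 31 nuclear subunits passed as higher in the numbered splits. The accessory subunit NDUFS6 stood at 98.5 ± 47.0 and 13.1 ± 19.6 FPKM (adjusted p = 0.00193), NDUFS7 at 118 ± 83.9 and 6.51 ± 13.2 FPKM (adjusted p = 0.00292) and NDUFB7 at 146 ± 147 and 18.3 ± 57.8 FPKM (adjusted p = 0.00742). The last of these was listed at 0 in 8 unnumbered splits. NDUFA12 passed in the other direction (489 ± 180 and 931 ± 306 FPKM, adjusted p = 0.0358), and the most abundant member, NDUFS5, did not pass (898 ± 265 and 777 ± 399 FPKM, adjusted p = 0.605). Without group a, only 1 complex I subunit passed as higher in the numbered splits.

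Of the 9 nuclear subunits of complex III, UQCRB alone passed (483 ± 127 and 239 ± 121 FPKM, adjusted p = 0.0336), while the more abundant UQCRQ (1431 ± 392 and 1066 ± 293 FPKM, adjusted p = 0.313) and UQCRH (866 ± 227 and 741 ± 198 FPKM, adjusted p = 0.605) did not. With size factors UQCRB was not called, and 1 complex III subunit passed as higher in the unnumbered splits. Of the 15 ATP synthase subunits, 2 passed as higher in the numbered splits, against 1 in each direction with size factors. ATP5L stood at 2366 ± 419 and 1464 ± 386 FPKM (adjusted p = 0.00879), and ATP5G2, which encodes the ring subunit c, at 1171 ± 327 and 511 ± 153 FPKM (adjusted p = 0.00176). The most abundant, ATP5J2, did not pass (2365 ± 1050.5 and 2602 ± 752 FPKM, adjusted p = 0.605).

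Among the nuclear genes that transcribe, cut, modify, tail or translate mitochondrial RNA, 1 was called. Of 33 tested, none passed as higher in the numbered splits and 1 as higher in the unnumbered splits, beside 3.93% and 1.38% of all rows, with 5 at an unadjusted p under 0.05 and a median log2 difference of 0.06. The 1 was MTPAP, the mitochondrial poly(A) polymerase, at 25.7 ± 32.7 and 221 ± 170.0 FPKM (limma adjusted p = 0.0367). It was not called without group a or without unnumbered split 247. SLIRP, which binds and stabilises mitochondrial mRNAs and was the most abundant member, stood at 789 ± 229 and 761 ± 242 FPKM (adjusted p = 0.905), and MTIF3, an initiation factor, had 119 ± 123 and 129 ± 146 FPKM (adjusted p = 0.757). Of 10 genes of mitochondrial DNA replication and upkeep, only DGUOK, a kinase of deoxynucleosides, passed, as higher in the numbered splits (268 ± 171 and 79.1 ± 127 FPKM, adjusted p = 0.0128), and it was not called without group a. The median log2 difference of these 10 genes was -0.57, with single genes from -1.73 (C20orf72) to 4.33 (DGUOK). SSBP1, which binds single-stranded mitochondrial DNA, did not pass (501 ± 142 and 969 ± 563 FPKM, adjusted p = 0.105).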

How the data were processed

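Each library had a deposited table of FPKM with a lower and an upper bound and a status, which the authors produced using TopHat 1.4.1 together with Cufflinks 2.0.2 (per the submitters' processing notes). Genome build and annotation are not given for these 20 libraries in the sources used here. For the other samples of the series the labels name hg19 and GENCODE V13. File loci were shifted to count from 1. Left out were 5797 rows that were LOWDATA throughout and 128 that were FAIL in at least 1 library. Fragment numbers were recovered from the bounds, taking the upper bound to lie 2 square roots of the number above the value. Depth is the slope of fragments per FPKM on row length, fitted on longer rows with residuals up to 0.244%. The fit left out MT-ATP6 and MT-ND4, which overlap a neighbour, but kept MT-CO3, which shares 1 base with MT-ATP6. Fits used limma 3.58.1 in R 4.3.3 (empirical Bayes with trend) on log2(FPKM + 1), which understates the change of low genes. Tables were made with Python 3.11.15, and the fit was tested on simulated data. Members and lists were chosen with earlier results of these data known. Named genes were all mitochondrial protein and ribosomal genes and, for each nuclear list, its 2 most abundant genes plus at most 3 past the threshold. Alternatives covered the pseudocount, level filter, scaling, test, groups and single splits. A member of the B cell marker list is not reported here by itself.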

Additional observations from a re-analysis of the deposited data

Results flagged for a closer look

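In 2 of 40 groups of 10 values (20 measures in each set), the highest or lowest split lay far from the rest by the gap to its nearest neighbour as a share of the range. Chance alone gives this in about 1 in 20 groups, which is the share seen here. MT-ND4 in numbered split 10 stood at 4136 FPKM, where the next highest numbered split held 3115 FPKM. MT-ND5 in unnumbered split 247 stood at 2757 FPKM, where the next highest unnumbered split held 2089 FPKM. Split 247 is the library with 0.128 megafragments.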

How the results depend on the processing

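No paired analysis was possible because the 2 sets share no replicate numbers. The difference of MT-RNR2 passed in every alternative run, as did those of MT-ND1, MT-CO1 and MT-ATP8. The count of mitochondrial rows higher in unnumbered splits (8) was 5 with no filter on level, without group a, with group a as a covariate, without splits 9, 247 and 253 and with groups b and d only, and 3 when scaled on 13 or on 12 mitochondrial protein genes, the last chosen after seeing the data. It was 11 with each library scaled to a fixed sum, over all rows or over rows off the mitochondrial genome, 10 with the length trend removed, and 9 with size factors, with a mean of at least 10 FPKM and by the exact rank-sum test. The count higher in numbered splits (2) was 1 without group a and with groups b and d only, where MT-RNR1 stood at 1.18 (adjusted p = 0.193). An exact rank-sum test called 940 rows in all, against 558. Scaled on 13 and on 12 protein genes, signs reversed for MT-ND2 (0.39, 0.31), MT-CO2 (0.14, 0.054), MT-ND3 (0.15, 0.070), MT-ND4 (0.30, 0.22), MT-ND6 (0.15, 0.064) and MT-CYB (0.12, 0.032), none past the threshold. MT-ND3 reversed without splits 9, 247 and 253 (0.16), MT-ND4L with the length trend removed (-0.49), and the share of MT-ND5 without group a (0.0418 percentage points) and with groups b and d only (0.0523). MT-CO2, MT-ND5 and MT-CYB lost their calls in several of these settings. The median CV in the numbered set was 0.166 as a share. With size factors 3 nuclear subunits were higher in unnumbered splits. Causes were not tested beyond fewer samples or rows. Depth limits mainly split 247 and MT-ND3 in split 9. Counting errors cover counting only.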

Other observations

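Nuclear copies of mitochondrial genes gave some signal. Of 172 rows off the mitochondrial genome with such a symbol, 23 had status LOWDATA throughout and 140 others were at 0 in every library. A mean of 1 FPKM or more was seen in 5 rows. Among these, MTND6P4 (mean 18.7 FPKM) had status LOWDATA in all 20 libraries and was not fitted. Reads of these copies and of their mitochondrial parents cannot be separated with certainty. MTND1P23, a copy of part of MT-ND1, stood at 269 ± 110.3 FPKM in the numbered and 826 ± 170 FPKM in the unnumbered splits (SD, n = 10, limma log2 -1.72, adjusted p = 2.48e-04), beside -1.63 for MT-ND1 itself. Its level was 36.9 ± 9.19% and 38.8 ± 4.01% of that of MT-ND1. MTND2P28 stood at 12.5 ± 0.486% and 11.3 ± 1.498% of MT-ND2, and neither row passed (MTND2P28 log2 -0.16, adjusted p = 0.778). MTRNR2L9, a copy related to MT-RNR2, passed as higher in the numbered splits, at 49.5 ± 18.3 and 10.5 ± 2.61 FPKM (log2 2.06, adjusted p = 0.0277), beside 1.91 for MT-RNR2.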
